A study of Mus musculus with 15 samples.

Results

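The 37 genes described here encode the plasma proteins of the complement and coagulation systems that the liver secretes, together with the inhibitors and fibrinolytic proteins that act on them. They were chosen by symbol, and all 37 of the listed symbols were found among the 24493 genes of the table. The data are total RNA sequencing of 15 libraries of cells sorted from mouse liver, in 5 groups of 3. All mice, the untreated ones included, were given AAV-TBG-Cre when 4 weeks old. This adeno-associated virus expresses Cre recombinase under the hepatocyte promoter TBG. The 3 DDC groups were reprogrammed cells, biliary epithelial cells and hepatocytes of mice that were put on DDC chow at 5 weeks of age for 4 weeks, and the 2 untreated groups were biliary epithelial cells and hepatocytes of mice that were not. DDC is a porphyrinogenic compound whose feeding injures bile ducts and hepatocytes and drives a ductular reaction. The labels call one DDC population reprogrammed cells and the series title calls them reprogrammed hepatocytes. They do not say on which markers any population was sorted, nor whether the 3 libraries of a group came from separate mice, so the p-values below measure only the spread between libraries, which may be technical.

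Complement and coagulation are cascades of inactive proteases in plasma, each of which cuts and activates the next. Complement starts from antibody, from lectins bound to microbial sugars or from slow spontaneous cleavage of C3, and ends in a pore built from C5b to C9. Coagulation starts from tissue factor or from contact with a charged surface, passes through vitamin K dependent factors and ends in thrombin, which turns fibrinogen into fibrin. The hepatocyte is the main source of nearly all of these proteins, and several are acute phase proteins that inflammatory cytokines raise through STAT3 and C/EBP factors. Biliary epithelial cells line the bile ducts and secrete bicarbonate and mucin rather than plasma proteins.

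The genes sit in small clusters on the chromosomes. In the GENCODE M21 annotation of GRCm38, Fgg, Fga and Fgb lay together on chromosome 3 between 83007724 and 83049863, C8b and C8a on chromosome 4 between 104766317 and 104876398, and Cfb and C2 on chromosome 17 between 34856374 and 34898265, with 85 bases between Cfb and C2. F7, F10 and Proz lay together on chromosome 8 between 13026034 and 13076026, and F11 and Klkb1 on the same chromosome between 45241174 and 45294859. RefSeq promoters of GRCm38.p6 were at hand for 28 of the 37 genes, and the 250 bases before each start were searched on both strands for sites of factors that act in liver or in the acute phase. The HNF1 half-site GTTAAT was found in 8 of these genes (C4bp, C8a, C8b, F13b, Fga, Fgb, Hc and Proz), against 6.43% of all 32851 promoters. The C/EBP motif TTGCNNAA was found in 7 genes (C3, C9, F11, F9, Fga, Fgb and Klkb1), against 9.56%, and the STAT motif TTCNNNGAA in 6 (C8a, F9, Fga, Fgb, Masp2 and Pros1), against 7.02%. The TATA box TATAAA was found in 2 (Hc and Klkb1), against 12.4%. The HNF4 motif CAAAGTCC, in 1.2% of all promoters, and an NF-kB motif (GGGAA and CC, 3 bases apart), in 4.94%, were found in none of the 28 windows.

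The promoters of 5 genes are shown because their genes carry the results below: C9 and C8b fell in cells of DDC mice, C3 and Pros1 had higher means in hepatocytes of DDC mice than of untreated mice, and Fgb, which holds 3 of the motifs, was not called under DDC. Each is the 250 bases before the RefSeq start, written 5′ to 3′ on the strand of the gene, and the capitals mark the motif matches, none of which overlap. C9 lies on the plus strand at chr15:6445096-6445345 with a C/EBP match, and C8b on the plus strand at chr4:104766067-104766316 with an HNF1 half-site match. Fgb lies on the minus strand at chr3:83049864-83050113 with matches to STAT, C/EBP and the HNF1 half-site, in that order. C3 lies on the minus strand at chr17:57228137-57228386 with a C/EBP match, and Pros1 on the plus strand at chr16:62854057-62854306 with a STAT match. A match is a run of letters and was not tested as a binding site.
C9: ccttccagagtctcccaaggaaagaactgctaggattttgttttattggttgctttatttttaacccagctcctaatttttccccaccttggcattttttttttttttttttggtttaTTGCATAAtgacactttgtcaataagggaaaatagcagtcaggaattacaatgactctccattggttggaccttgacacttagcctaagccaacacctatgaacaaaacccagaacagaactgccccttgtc
C8b: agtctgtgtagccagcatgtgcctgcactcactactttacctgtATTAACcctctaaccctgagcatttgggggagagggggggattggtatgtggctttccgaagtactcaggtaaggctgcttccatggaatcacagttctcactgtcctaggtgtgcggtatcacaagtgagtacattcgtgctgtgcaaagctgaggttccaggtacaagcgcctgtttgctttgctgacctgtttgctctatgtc
Fgb: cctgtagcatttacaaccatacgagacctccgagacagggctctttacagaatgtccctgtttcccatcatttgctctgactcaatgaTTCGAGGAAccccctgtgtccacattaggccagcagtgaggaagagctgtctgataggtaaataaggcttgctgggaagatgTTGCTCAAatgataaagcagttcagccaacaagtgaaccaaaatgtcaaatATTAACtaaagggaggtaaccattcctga
C3: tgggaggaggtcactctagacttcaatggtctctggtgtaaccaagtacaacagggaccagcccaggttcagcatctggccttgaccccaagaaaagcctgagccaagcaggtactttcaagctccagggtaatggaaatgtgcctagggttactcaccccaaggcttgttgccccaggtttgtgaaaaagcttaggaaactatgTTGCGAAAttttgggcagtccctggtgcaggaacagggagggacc
Pros1: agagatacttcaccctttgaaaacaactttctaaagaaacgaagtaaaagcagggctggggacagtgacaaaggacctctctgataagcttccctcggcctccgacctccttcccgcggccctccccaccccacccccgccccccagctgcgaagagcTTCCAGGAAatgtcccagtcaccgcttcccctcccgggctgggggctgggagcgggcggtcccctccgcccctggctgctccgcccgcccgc

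The values below are TPM (a measure of transcript level that is corrected for transcript length and library total) divided by 1 scale factor per library, so that the typical gene has the same level in every library. They are called scaled TPM. Differences are log2 differences of scaled TPM + 1 with their standard error, from 1 limma fit of all 15 libraries over 13905 genes, and the p-values are limma's, adjusted by Benjamini and Hochberg over those genes. A gene was called higher or lower at an adjusted p under 0.05 where the log2 difference was also 1 or more in size. TPM keep no read totals, so the depth behind each value is unknown. All 37 genes passed the filter of at least 1 TPM in at least 3 libraries, and the lowest value of any of them in any library was 5.22 scaled TPM, for F11 in 1 DDC biliary library.

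The cell labels could be set against markers. A list of 20 hepatocyte genes without any of the 37 (Alb, apolipoproteins, Ttr, Cps1 and others) summed to 77489 to 159292 deposited TPM in reprogrammed libraries, 43502 to 83062 in DDC biliary, 132006 to 199449 in DDC hepatocyte, 79518 to 96205 in untreated biliary and 171982 to 183988 in untreated hepatocyte libraries. All 20 were above 1 TPM in every group, the biliary ones included. A list of 8 biliary genes (Krt19, Krt7, Epcam, Sox9, Spp1 and others) summed to 4712 to 14784, 11122 to 19346, 195 to 388, 14307 to 17381 and 10.7 to 13.9 deposited TPM in the same order of groups, and Krt7, Cldn7 and Cftr were listed at 0 in all 3 untreated hepatocyte libraries. Sums of stellate and of macrophage markers were higher in the reprogrammed and biliary groups than in the hepatocyte groups: the 8 stellate and fibroblast genes, led by Rgs5 in all groups but untreated hepatocytes, summed to 292 to 564, 592 to 1037, 9.75 to 17.5, 176 to 205 and 0.756 to 3.26 deposited TPM, and the 8 macrophage genes to 42.3 to 70.5, 49.7 to 142, 12.7 to 32.2, 86.5 to 138 and 7.94 to 15.2. The 4 mesothelial genes were also higher in the reprogrammed and biliary groups. They summed to 65.9 to 81.1, 155 to 250, 0.364 to 0.565, 74.8 to 92.9 and 0.197 to 0.391 deposited TPM in the same order of groups. The endothelial, lymphocyte and neutrophil, and platelet lists summed to at most 53.7 deposited TPM in any library. What part cells of other types had in the differences below was not tested. In a bulk library, fewer cells of a type and less RNA per cell cannot be told apart. Correlations between libraries of a group ran from 0.934 to 0.978, and no 2 libraries of a group were identical. In 3 groups 1 library stood apart for these genes: reprogrammed library 2 was the highest of its group for 32 of the 37, DDC biliary library 3 the lowest for 35 and untreated biliary library 1 the highest for 36.

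In hepatocytes of untreated mice the levels of the 37 genes spanned more than 2 orders of magnitude. Fgb, the beta chain of fibrinogen, led with 6432 ± 129 scaled TPM (SD, n = 3), followed by Fgg with 5194 ± 243, C3, the protein on which all complement routes meet, with 5179 ± 522, and Fga with 4252 ± 182. Antithrombin (Serpinc1), high molecular weight kininogen (Kng1), plasminogen (Plg) and prothrombin (F2) came next, between 2517 ± 113 for Serpinc1 and 2223 ± 83.1 for F2. Libraries overlapped between Fgg and C3, Serpinc1 and Kng1, and Kng1 and Plg, and did not between the other neighbours among these 8 genes. Masp1, a protease of the lectin route, had 86.9 ± 1.97 and Pros1, the cofactor of activated protein C, had 50.6 ± 9.22, the lowest. The 37 genes together took 1.84% to 2.93% of the deposited TPM in reprogrammed, 1.002% to 1.64% in DDC biliary, 2.80% to 3.46% in DDC hepatocyte, 1.21% to 1.53% in untreated biliary and 2.70% to 2.98% in untreated hepatocyte libraries. The mean was highest in untreated hepatocytes for 29 of the genes and in DDC hepatocytes for the other 8, and lowest in DDC biliary cells for 31 and in untreated biliary cells for 6.

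**Figure D1:**
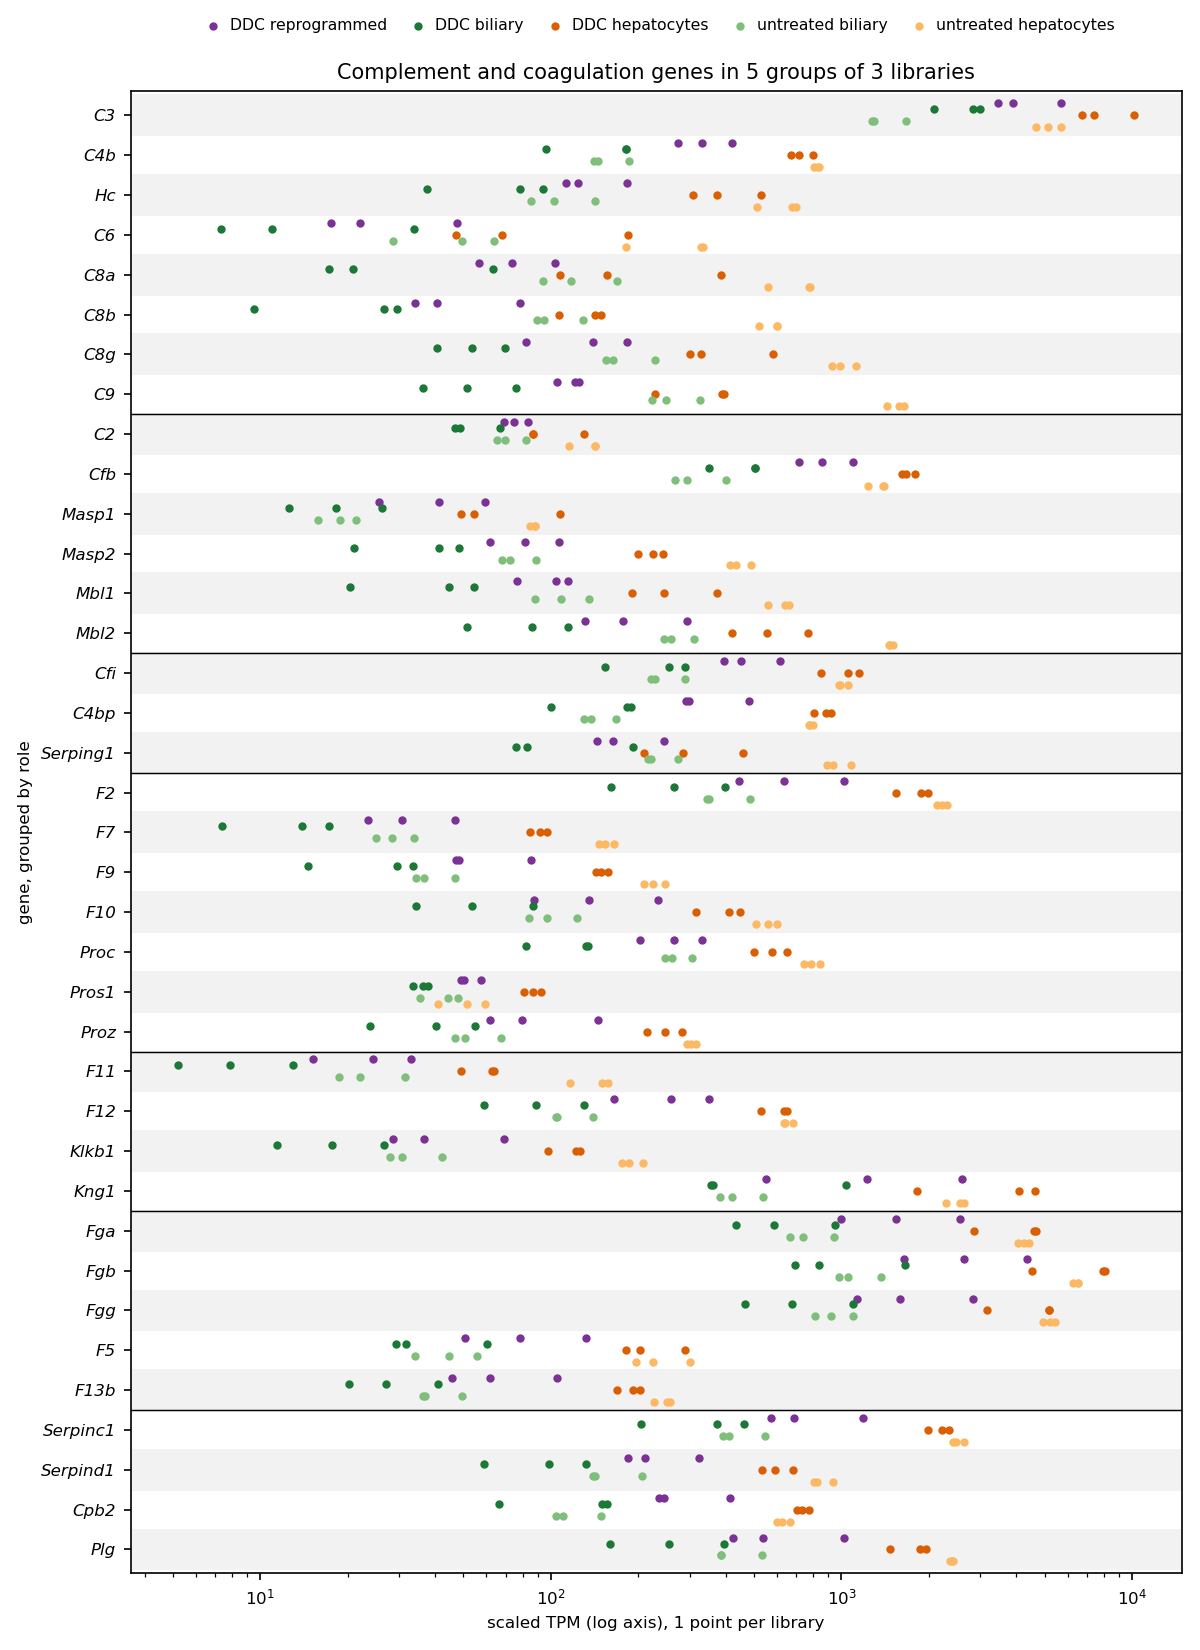
Scaled TPM (log axis) of the 37 genes, 1 point per library, coloured by group in 5 groups of 3 libraries and ordered by role, with lines between roles. By group mean the 2 hepatocyte groups lie to the right for every gene but Pros1. Single DDC hepatocyte libraries lie below an untreated biliary library for C6, C8a, C8b, C9 and Serping1. The DDC biliary libraries are lowest for most genes, and the reprogrammed libraries lie mostly between those of DDC biliary cells and DDC hepatocytes. Pros1 and C2 show the smallest separation.

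Reprogrammed cells had less of nearly all these transcripts than hepatocytes of DDC mice, and more than biliary cells of DDC mice. Against DDC hepatocytes, 31 of the 37 genes were lower and none higher, with a median log2 difference of -1.36, where 5.77% of all genes tested were called lower, 13.7% higher, and the median of all genes was 0.06. The difference was below 0 for all 37 on this scale, but not on others: without scale factors it was above 0 for C2, Masp1, Pros1 and Serping1, with quantile normalization it was above 0 for C3, and the count of the 37 called lower by limma was then 0 (20 had an unadjusted p under 0.05) and 4. Of all 13905 genes, 9 were called lower without scale factors and 693 with quantile normalization. The deposited TPM placed the median gene itself 0.71 higher in reprogrammed cells on the log2 scale, and the median of the 37 genes at -0.57. The genes not called lower were C3, C2, Cfb, Masp1, Serping1 and Pros1. C3, Cfb and Pros1 passed the p threshold but differed by less than 1, with -0.90 ± 0.25 (SE; adjusted p = 0.0102), -0.94 ± 0.20 (adjusted p = 0.00196) and -0.72 ± 0.14 (adjusted p = 0.00116) by limma.

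Of the 8 genes for C3, C4b and the terminal components that assemble the pore, 7 were lower in reprogrammed cells, C3 being the exception. C9, the subunit that polymerizes into the ring, had 105, 125 and 121 scaled TPM in reprogrammed libraries, against 388, 228 and 393 in DDC hepatocyte libraries. The groups did not overlap, and the log2 difference was -1.48 ± 0.26 (limma, adjusted p = 0.000523). C6, which joins C5b early in assembly, had 47.5, 22.0 and 17.5 in reprogrammed libraries, against 184, 47.3 and 68.0 in DDC hepatocyte libraries. The highest reprogrammed library thus reached the lowest hepatocyte library, and the call (-1.63 ± 0.59, adjusted p = 0.0372) was lost without DDC hepatocyte library 1 or 3 or reprogrammed library 2 or 3, with no filter on low values, and in a fit of only these 2 groups. Hc, which encodes C5, was lower by a log2 difference of -1.51 ± 0.33 (adjusted p = 0.00231). Of the lectin route, the mannose-binding lectins Mbl1 (-1.41 ± 0.33, adjusted p = 0.00353) and Mbl2 (-1.57 ± 0.32, adjusted p = 0.00155) and the protease Masp2 were lower, and Masp1 was not called. Of the 3 complement inhibitors, C4bp and factor I (Cfi) were lower and Serping1 was not called.

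Of the vitamin K dependent proteins, 6 of 7 were lower in reprogrammed cells, Pros1 being the exception. F2 had 443, 1020 and 633 scaled TPM in reprogrammed libraries, against 1545, 1876 and 1981 in DDC hepatocyte libraries. The groups were apart, at -1.44 ± 0.32 (limma, adjusted p = 0.00279), although the reprogrammed libraries varied more than the hepatocyte ones. All 4 genes of the contact system (F11, F12, Klkb1 for plasma prekallikrein, and Kng1), all 5 of fibrinogen, factor V and the factor XIII carrier subunit F13b, and all 4 of antithrombin, heparin cofactor II (Serpind1), plasminogen and the fibrinolysis inhibitor Cpb2 were lower. Fgb had 1644, 4353 and 2646 scaled TPM in reprogrammed libraries, against 4535, 8084 and 7928 in DDC hepatocyte libraries, which is -1.31 ± 0.38 (limma, adjusted p = 0.0132). Reprogrammed library 2 came close to DDC hepatocyte library 1 without reaching it, and the call was lost without reprogrammed library 1, with no filter, and in a fit of only these 2 groups.

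Against biliary cells of DDC mice, 28 of the 37 genes were higher in reprogrammed cells and none lower, with a median log2 difference of 1.23, where 2.78% of all genes were called higher. The sign was positive for all 37 genes here and without scale factors, where 10 were called (120 of all genes), and turned for C3 (-0.44) with quantile normalization, where 17 were called (381 of all genes). The deposited TPM placed the median gene at -0.34. F7, the partner of tissue factor, had 23.5, 46.9 and 30.8 scaled TPM in reprogrammed libraries, against 14.0, 17.2 and 7.38 in DDC biliary libraries, and rose by a log2 difference of 1.35 ± 0.27 (limma, adjusted p = 0.00993). Proc, the anticoagulant protein C, had 202, 332 and 266 in reprogrammed libraries, against 132, 134 and 82.3 in DDC biliary libraries, at 1.20 ± 0.21 (adjusted p = 0.00648). Neither gene overlapped between the groups. F12, the initiator of the contact system, had 165, 350 and 259 in reprogrammed libraries, against 89.1, 130 and 58.9 in DDC biliary libraries. This count rested on 2 libraries: it was 3 without DDC biliary library 3, where the call of Proc was lost too, and 4 without reprogrammed library 2, and the count over all genes was then 56 and 100, against 386 with all libraries. The count was 17 with no filter (232 of all 24493 genes). It was 31 (569 of all 13905 genes) with the library number as a block within treatment, where C8a (adjusted p = 0.00667), F5 (adjusted p = 0.00715) and Kng1 (adjusted p = 0.0116) were added, and 0 in a limma fit of only the 6 libraries of these groups (33 had an unadjusted p under 0.05), in which 1 of all 13905 genes was called higher.

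Biliary cells had the least of these transcripts, in both treatments. In DDC mice, 36 of the 37 genes were lower in biliary cells than in hepatocytes, with a median of -2.66, where 14.4% of all genes were called lower; C2, the protease of the classical and lectin routes, whose test was looked up after its values were seen, was the exception at -0.88 ± 0.18 (adjusted p = 0.000723). Its sign turned without scale factors, as did that of C3 with quantile normalization, and the deposited TPM placed the median gene 1.06 higher in DDC biliary cells. In untreated mice, 35 of the 37 were lower in biliary cells, with a median of -2.47, where 15.6% of all genes were called lower, and the exceptions were C2 at -0.87 ± 0.18 (adjusted p = 0.000726) and Pros1 at -0.24 ± 0.14 (adjusted p = 0.151). C2 had 81.9, 69.5 and 65.4 scaled TPM in untreated biliary libraries, against 142, 142 and 116 in untreated hepatocyte libraries, which did not overlap. Pros1 had 44.4, 48.0 and 35.4 in untreated biliary libraries, against 51.3, 59.4 and 41.0 in untreated hepatocyte libraries, which did. Without scale factors, where the median gene was 1.11 higher in untreated biliary cells, Pros1 was called higher (1.01, adjusted p = 2.69e-05) and the sign of C2 turned (0.39). The sign of Pros1 was also positive with quantile normalization (0.09).

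As a percentage of the hepatocyte mean, most of the genes lay in a narrow band. The median over the 37 genes was 39.8% for reprogrammed cells over DDC hepatocytes, where the middle of the genes ran from 37.5% to 42.7% (quartiles), and the median of the 20 other hepatocyte genes was 40.2%. For DDC biliary cells over DDC hepatocytes it was 16.5%, with quartiles of 15.5% and 18.1%, and 16.0% for the other hepatocyte genes. For untreated biliary cells over untreated hepatocytes it was 18.2%, with quartiles of 17.8% and 19.1%, and 17.7% for the other hepatocyte genes. Genes as different in level as Fgb, with 17.6%, and F11, with 17.0%, thus stood at nearly the same percentage in untreated biliary cells. Above the upper quartile in all 3 comparisons lay 8 genes: C2 with 74.8%, 53.4% and 54.2% in the same order of comparisons, Pros1 with 60.3%, 41.3% and 84.2%, C3 with 53.8%, 32.6% and 27.3%, Serping1, the C1 inhibitor, with 58.1%, 36.8% and 24.4%, Masp1 with 59.8%, 27.0% and 21.4%, Cfb with 52.7%, 26.8% and 23.9%, Cfi with 47.9%, 22.8% and 24.4%, and Proc with 46.5%, 20.2% and 34.2%. The share of transcripts that came from hepatocytes in the biliary and reprogrammed libraries was not tested.

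**Figure D2:**
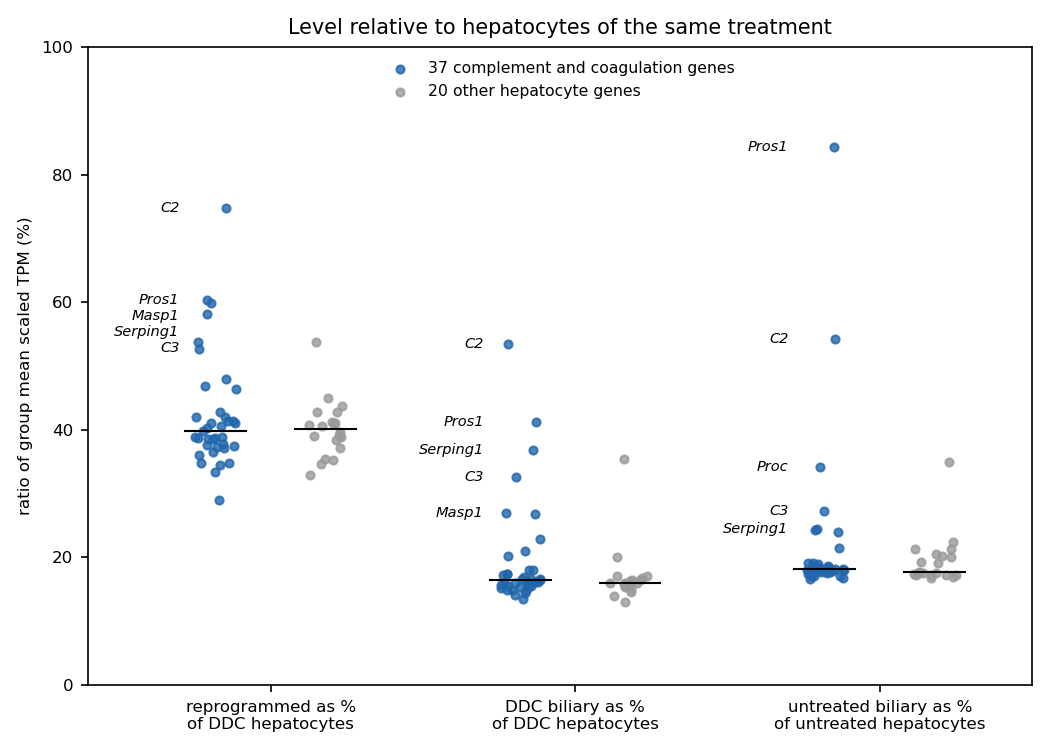
Ratio of group mean scaled TPM as a percentage of hepatocytes of the same treatment, 1 point per gene, for the 37 genes and 20 other hepatocyte genes, with black bars at the medians and the 5 highest of the 37 named. The medians of the 2 gene sets differ by less than 1 percentage point in each comparison (39.8% and 40.2%, 16.5% and 16.0%, 18.2% and 17.7%).

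The same band moved from library to library. Libraries of the same number are set side by side here, and the labels do not say what an equal number means. The median over the 37 genes was 30.9%, 54.7% and 33.3% for reprogrammed libraries 1, 2 and 3 over the DDC hepatocyte library of that number, and 32.7%, 55.8% and 29.9% for the other hepatocyte genes. For DDC biliary libraries it was 18.7%, 21.3% and 9.33%, and 19.4%, 21.6% and 8.61% for the other hepatocyte genes. Both sets were thus highest in reprogrammed library 2 and lowest in DDC biliary library 3, the libraries named above as standing apart.

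When every library was also scaled to the geometric mean of the 20 other hepatocyte genes, the genes that moved with that list dropped out. Against DDC hepatocytes no member was then called in reprogrammed cells by limma (4 at an unadjusted p under 0.05), where 59.6% of all genes were called higher, and against DDC biliary cells none was called (2 at an unadjusted p under 0.05), where 66.8% of all genes were called lower. In DDC biliary cells over DDC hepatocytes 4 genes were called higher on this scale, where 87.2% of all genes were: C2 (1.72 ± 0.35, adjusted p = 0.000244), Pros1 (1.34 ± 0.29, adjusted p = 0.000331), Serping1 (1.13 ± 0.46, adjusted p = 0.0284) and C3 (1.02 ± 0.21, adjusted p = 0.000281). The count was 2 without DDC biliary library 3 or DDC hepatocyte library 3, where C3 and Serping1 were lost. The call of C3 was also lost without DDC biliary library 1, and that of Serping1 without DDC biliary library 1 or DDC hepatocyte library 2. In untreated biliary cells over untreated hepatocytes the genes called higher were Pros1 (2.07 ± 0.29, adjusted p = 7.09e-06) and C2 (1.48 ± 0.35, adjusted p = 0.00105), where 78.9% of all genes were.

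The genes that were lower in hepatocytes after DDC feeding were mainly those of the terminal pore and of the lectin route. Of the 37 genes, 8 were lower in hepatocytes of DDC mice than of untreated mice and none higher (16 had an unadjusted p under 0.05), with a median of -0.42, where 4.42% of all genes were called lower and 6.59% higher. Of the 20 other hepatocyte genes, 7 were called lower in this comparison and 0 higher. The 8 of the 37 were C8a, C8b, C8g and C9 of the terminal pore, the lectins Mbl1 and Mbl2, the C1 inhibitor Serping1, and factor XI. Of the 20 genes in the 4 coagulation roles, F11 was the only one called in this comparison. The fibrinogen chains were not called, with Fgb at 0.04 ± 0.38 (adjusted p = 0.965). With quantile normalization the count of genes called lower was 5, with C3 called higher (459 and 780 of all 13905 genes).

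C9 had 388, 228 and 393 scaled TPM in DDC hepatocyte libraries, against 1639, 1439 and 1580 in untreated hepatocyte libraries. It fell to 21.7% of the untreated mean, the lowest of the 37 genes, at -2.24 ± 0.26 (limma, adjusted p = 4.37e-05). C8b, the chain that docks C8 onto C5b-7, had 148, 142 and 106 in DDC hepatocyte libraries, against 602, 599 and 521 in untreated ones (-2.12 ± 0.37, adjusted p = 0.00109). Mbl2 had 420, 554 and 769 in DDC hepatocyte libraries, against 1461, 1508 and 1469 in untreated ones (-1.39 ± 0.32, adjusted p = 0.006). None of these 3 genes overlapped between treatments. C8a had 386, 107 and 156 in DDC hepatocyte libraries, against 773, 779 and 559 in untreated ones (-1.90 ± 0.50, adjusted p = 0.0131), a call that was lost without DDC hepatocyte library 2, with quantile normalization, and in a fit of only these 2 groups. C6 had 184, 47.3 and 68.0 in DDC hepatocyte libraries, against 327, 335 and 182 in untreated ones. It overlapped by 1 library and was not called (-1.68 ± 0.59, adjusted p = 0.0511).

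C3, Cfb and Pros1 were among the 8 of the 37 genes that had higher means in DDC than in untreated hepatocytes. The others were Kng1, Cpb2, C4bp, Fgb and Cfi, and none of the 8 was called on this scale. C3 had 7399, 10148 and 6741 scaled TPM in DDC hepatocyte libraries, against 5154, 5713 and 4669 in untreated hepatocyte libraries. The groups did not overlap, and the difference was not called (0.63 ± 0.25, adjusted p = 0.0820), except with quantile normalization (1.15). Cfb, the protease of the alternative route, had 1612, 1788 and 1664 in DDC hepatocyte libraries, against 1386, 1398 and 1238 in untreated ones, which did not overlap and was not called (0.33 ± 0.20, adjusted p = 0.242). Pros1 had 81.1, 86.8 and 92.3 in DDC hepatocyte libraries, against 51.3, 59.4 and 41.0 in untreated ones. It passed the p threshold (adjusted p = 0.00128) and missed the size threshold at 0.78 ± 0.14; without scale factors it was called higher. With C9 lower under DDC, as given above, the ratio of C3 to C9 within a library was 26.9 ± 15.2 in DDC hepatocytes and 3.36 ± 0.54 in untreated hepatocytes (SD, n = 3 each). The 3 DDC hepatocyte libraries had 19.1, 44.5 and 17.2. The median of all genes was shifted by 0.17 in the deposited TPM, and without scale factors C4b, F12, F5, Fga, Fgg and Serpinc1, none of them called, changed sign.

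The hepatocyte list had a median of -0.51 under DDC in hepatocytes, with quartiles of -1.21 and -0.17. Its genes ran from 9.31% (Fabp1) to 217% (Hpx) of the untreated hepatocyte mean. The scale uses the geometric mean of the list, not this median. Scaled to that list, 4 of the 37 genes were called higher in DDC hepatocytes by limma, no larger a share than the 13.1% of all genes. They were Pros1 (1.50 ± 0.29, adjusted p = 0.00227), C3 (1.40 ± 0.21, adjusted p = 0.000433), Kng1 (1.16 ± 0.31, adjusted p = 0.0173) and Cfb (1.10 ± 0.20, adjusted p = 0.00154). C9 (-1.47 ± 0.29, adjusted p = 0.00305) and C8b (-1.34 ± 0.30, adjusted p = 0.00648) were called lower on this scale, where 1.04% of all genes were. The call of Cfb was lost without DDC hepatocyte library 1, and that of Kng1 without DDC hepatocyte library 2 or untreated hepatocyte library 1 or 3.

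Biliary libraries showed the same genes moving under DDC. Over hepatocytes of the same treatment, the median of the 37 genes was 18.2% in untreated and 16.5% in DDC biliary cells. For the other hepatocyte genes it was 17.7% and 16.0%. How much of the differences in biliary libraries came from hepatocyte RNA in them was not tested. Of the 37 genes, 11 were lower in biliary cells of DDC mice than of untreated mice and none higher (21 had an unadjusted p under 0.05), with a median of -0.59, where 4.74% of all genes were called lower and 5.68% higher. All 8 genes that were lower in hepatocytes were among the 11, which also held Masp2, F7 and Proc. Of the 20 other hepatocyte genes, 8 were called lower in this comparison and 0 higher, with a median of -0.80. C9 had 75.8, 51.4 and 36.3 scaled TPM in DDC biliary libraries, against 325, 223 and 250 in untreated biliary libraries (-2.31 ± 0.26, adjusted p = 3.5e-05). Proc had 132, 134 and 82.3 in DDC biliary libraries, against 305, 247 and 261 in untreated biliary libraries (-1.25 ± 0.21, adjusted p = 0.000773). C3 had 2830, 2996 and 2090 in DDC biliary libraries, against 1666, 1291 and 1278 in untreated biliary libraries, which did not overlap; it passed the p threshold but missed the size threshold (0.90 ± 0.25, adjusted p = 0.0194), and was called higher without DDC biliary library 3 or untreated biliary library 1 and with quantile normalization. The calls of F7 and Serping1 were lost without DDC biliary library 3, and that of Serping1 also without DDC biliary library 2 or any 1 of the untreated biliary libraries, without scale factors, with no filter, and in a fit of only these 2 groups.

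Across the 37 genes the 2 DDC responses, which share no library, had a Pearson correlation of 0.935 and a Spearman correlation of 0.937. This is a correlation across genes, which are not independent replicates. What part hepatocyte RNA in the biliary libraries had in it was not tested. Scaled to the hepatocyte list, C3 (1.91 ± 0.21, adjusted p = 8.59e-06), Cfb (1.51 ± 0.20, adjusted p = 3.93e-05), Kng1 (1.23 ± 0.31, adjusted p = 0.00459) and C4bp (1.08 ± 0.19, adjusted p = 0.000427) were called higher in DDC biliary cells, where 42.9% of all genes were, and C8b and C9 lower, where 1.81% of all genes were. The call of Kng1 was lost without DDC biliary library 2 and that of C4bp without DDC biliary library 1.

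**Figure D3:**
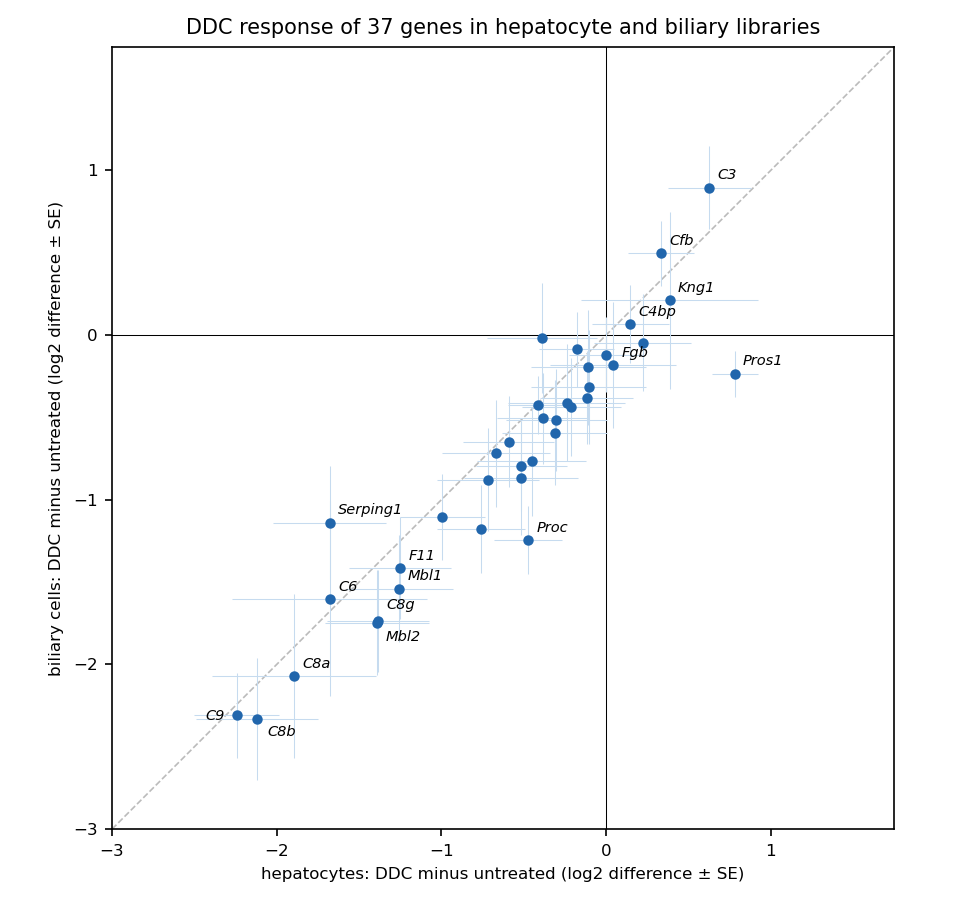
Log2 difference (± SE) between DDC and untreated libraries of the 37 genes in hepatocytes (x axis) and in biliary cells (y axis), with the dashed line of equal response. C8a, C8b, C8g, C9, Mbl1 and Mbl2 lie at the lower left and C3 and Cfb at the upper right, both near the line, while Pros1 lies below it at 0.78 in hepatocytes and -0.24 in biliary cells.

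Pros1 was the only one of the 37 genes whose DDC response differed between the cell types by the test of the difference itself. Of all genes, 4.94% were called lower and 3.46% higher, so 1 of the 37 called lower is no larger a share. The deposited TPM placed the median gene at -0.13. Pros1 had 37.6, 36.2 and 33.5 scaled TPM in DDC biliary libraries, against 44.4, 48.0 and 35.4 in untreated biliary libraries. Its 3 values in DDC hepatocytes, given above, all lay above the 3 in untreated hepatocytes. The biliary response minus the hepatocyte response was -1.02 ± 0.20 (limma, adjusted p = 0.00429). Since the size lies close to the threshold of 1, the call was lost without untreated biliary library 1 or 2, untreated hepatocyte library 3, DDC biliary library 3 or DDC hepatocyte library 3, where the difference ran from -0.88 to -0.98, still with an adjusted p under 0.05. It was also lost with quantile normalization (-0.94), with a pseudocount of 5 (-0.95), and on the scale of the hepatocyte list (-0.73 ± 0.40, adjusted p = 0.462), where 0.662% of all genes were called lower. Proc had the next largest difference, -0.77 ± 0.29, and was not called (adjusted p = 0.109), except with quantile normalization (-1.04, adjusted p = 0.0109).

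Within the DDC groups the genes divided by library number. C2, C6, C8a, Mbl1 and Serping1 were highest in library 1 of all 3 DDC groups. C3, Cfb, F11, F13b, F5, F9, Fga, Fgb, Fgg, Klkb1, Kng1, Masp1, Plg and Proz were highest in library 2 of all 3. Kng1 was also lowest in library 1 of all 3 groups, with 551, 2605 and 1221 scaled TPM in reprogrammed, 356, 1034 and 362 in DDC biliary and 1823, 4651 and 4089 in DDC hepatocyte libraries. C8a and C8b, which encode 2 chains of the same protein and lie 11130 bases apart, did not move together over the DDC libraries: C8a was highest in library 1 of all 3 groups, while C8b was lowest in library 3 of all 3. The ratio of C8a to C8b was 2.56, 0.720 and 2.16 in reprogrammed, 2.36, 0.709 and 1.80 in DDC biliary and 2.60, 0.753 and 1.46 in DDC hepatocyte libraries, and 1.30, 1.24 and 1.04 in untreated biliary and 1.28, 1.30 and 1.07 in untreated hepatocyte libraries. Library 2 was thus lowest for this ratio in all 3 DDC groups. The ratios between the fibrinogen chains had narrower ranges over all 15 libraries, 0.575 to 0.704 for Fga over Fgb and 0.603 to 0.873 for Fgg over Fgb. In hepatocytes both were lower under DDC without overlap: Fgg over Fgb was 0.698, 0.643 and 0.653 in DDC libraries, against 0.803, 0.834 and 0.785 in untreated libraries, and Fga over Fgb was 0.628, 0.579 and 0.582 in DDC libraries, against 0.654, 0.682 and 0.647 in untreated libraries. These ratios were not tested.

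**Figure D4:**
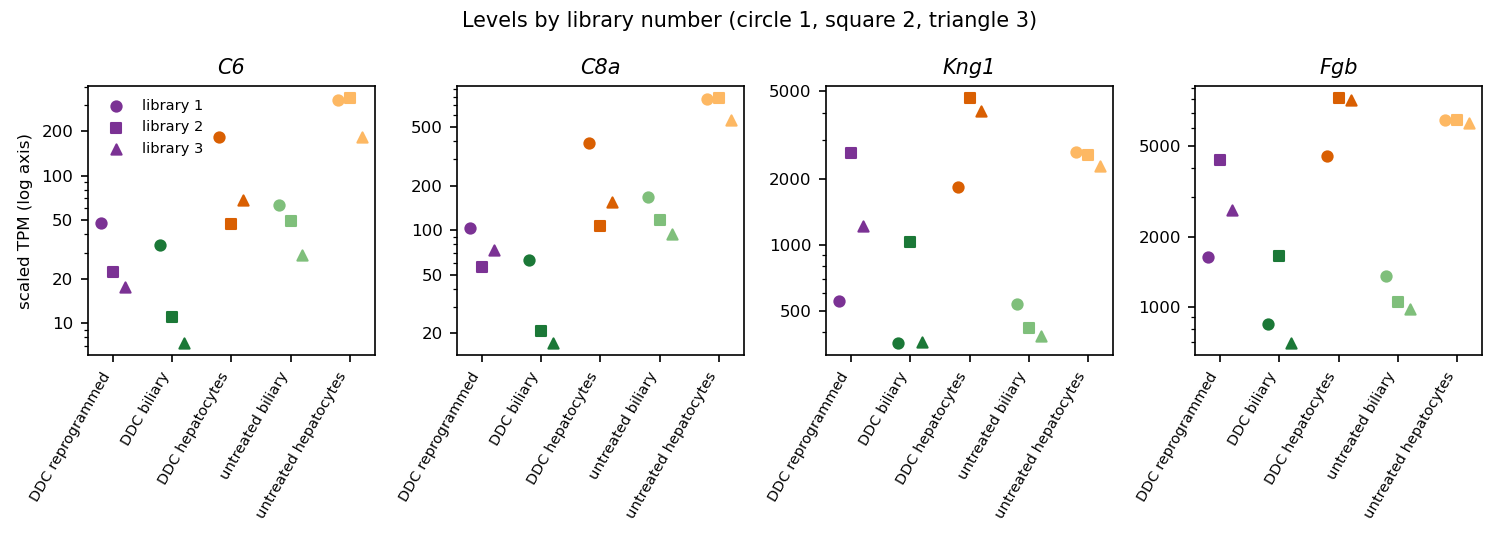
Scaled TPM (log axis) of C6, C8a, Kng1 and Fgb in the 5 groups, with a circle for library 1, a square for library 2 and a triangle for library 3. In the 3 DDC groups library 1 (circle) is highest for C6 and C8a, and library 2 (square) is highest for Kng1 and Fgb; in the untreated groups the libraries lie closer together.

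Among 48 tested genes of these cascades outside the 37, 17 were lower in reprogrammed cells than in DDC hepatocytes, 7 were higher and 24 were called in neither direction. These are 35.4% and 14.6% of the 48, against the 5.77% and 13.7% of all genes given above. Of 9 tested genes of the C1 complex and the collectins, 3 were lower in reprogrammed cells than in DDC hepatocytes and 1 was higher. Of 15 tested regulators and receptors of complement 4 were lower and 2 higher, of 13 coagulation factors and cofactors 6 were lower and 1 higher, and of 11 coagulation inhibitors and receptors 4 were lower and 3 higher. C1ra and C1s1, the proteases of the C1 complex, vitronectin (Vtn) and alpha-2-antiplasmin (Serpinf2) were among the lower genes. C1s1 had 181 ± 13.5 scaled TPM in reprogrammed cells and 388 ± 112 in DDC hepatocytes (SD, n = 3 each), a log2 difference of -1.06 (limma, adjusted p = 0.00559). The call of C1s1 was lost without DDC hepatocyte library 1.

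Of the genes that were higher in reprogrammed cells, 1 starts coagulation. F3, which encodes tissue factor, had 37.2 ± 7.10 scaled TPM in reprogrammed cells, 66.6 ± 16.3 in DDC biliary cells, 5.74 ± 3.79 in DDC hepatocytes, 48.2 ± 10.5 in untreated biliary cells and 1.42 ± 0.569 in hepatocytes of untreated mice (SD, n = 3 each). Reprogrammed cells exceeded DDC hepatocytes by 2.65 on the log2 scale (limma, adjusted p = 7.52e-05). F2rl1, the receptor PAR2 that factor VIIa with tissue factor can cleave, was higher by 2.80 (adjusted p = 7.53e-07), with 32.6 ± 5.17 in reprogrammed cells and 3.93 ± 1.37 in DDC hepatocytes. Clusterin (Clu), an inhibitor of the terminal pore, was higher by 1.29 (adjusted p = 0.013), a call that was lost without reprogrammed library 1 or DDC hepatocyte library 2, with no filter, and in a fit of only these 2 groups. Tfpi, the inhibitor of tissue factor, had 5.78 ± 1.35 in untreated biliary cells and 0.195 ± 0.114 in hepatocytes of untreated mice (2.49, adjusted p = 4.96e-06). Serpine2, the thrombin inhibitor protease nexin-1, had 26.8 ± 4.15 in reprogrammed cells, 43.5 ± 3.10 in DDC biliary cells, 0.747 ± 0.626 in DDC hepatocytes, 4.34 ± 1.38 in untreated biliary cells and 13.6 ± 5.64 in hepatocytes of untreated mice. By limma its level was above that of DDC hepatocytes in reprogrammed cells by 4.04 (adjusted p = 3.16e-07). It was lower in DDC than in untreated hepatocytes by a log2 difference of -3.04 (adjusted p = 1.43e-05). The Serpine2 mean in DDC hepatocytes and the Tfpi mean in untreated hepatocytes lie below the pseudocount of 1, so the sizes of these differences depend on it.

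Near-identical copies limit a few values. C4b has the paralog C4a, which had 20.5 ± 10.9 scaled TPM in untreated hepatocytes, and Kng1 has the paralog Kng2 with 411 ± 33.9, and Salmon may have divided shared reads between the copies. Cfb and C2, 85 bases apart on the same chromosome, and the other neighbours listed above were counted as separate genes.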

How the data were processed

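Total RNA of sorted mouse liver cells was sequenced in 15 libraries, 3 in each of 5 groups, assigned to group and number by their labels. The deposited values are gene TPM that the authors computed with Salmon for the build mm10, per the submitters' processing notes; the version of Salmon and the strandedness of counting are not given in the sources used here. No read totals can be had from TPM, so no counting intervals are given and the number of libraries limits the precision.

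Genes with at least 1 TPM in at least 3 libraries were kept (13905 of 24493). Each library was divided by a size factor (the median ratio to the geometric mean across libraries, from 11924 genes), and log2(scaled TPM + 1) was fitted with limma 3.58.1 in R 4.3.3. The fit had a trend of variance with level and left 10 residual degrees of freedom, so that the groups share 1 estimate of the spread. The pseudocount of 1 understates the change of low genes. A second fit further scaled the libraries to the geometric mean of 20 hepatocyte genes.

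The 37 genes, the other gene lists and the comparisons were chosen with earlier results of these data known. Levels may be given for all 37 genes. Log2 differences are given for 30 of them fixed by role, for the 6 called genes with the largest differences in each direction of a comparison, and for at most 6 called genes of each other list; C2 falls outside this rule. Gene positions are from GENCODE M21 (GRCm38, the assembly of mm10) and promoters from RefSeq GRCm38.p6. Deviations from the group means correlated between libraries of the same number at 0.449, 0.401 and 0.136 for reprogrammed cells and DDC hepatocytes, 0.410, 0.456 and 0.208 for reprogrammed and DDC biliary cells, and 0.150, 0.171 and 0.236 for untreated biliary cells and hepatocytes. These were taken as paired, from the data and not from the labels, but neither fit had a block for the library number. The number was a block only in alternatives, so the differences and p-values given are unpaired unless a block is named. For DDC biliary cells and hepatocytes the values were 0.318, 0.319 and 0.0436, which was not taken as paired. This choice is at odds with the others, which pair both of these groups with reprogrammed cells of the same number. Alternatives covered the scaling, pseudocount, filter, libraries fitted, moderation, replicate block and leaving out each library.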

Additional observations from a re-analysis of the deposited data

Results flagged for a closer look

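Genes are given here because their response to DDC differed between biliary cells and hepatocytes in the test of that difference, as the biliary response minus the hepatocyte response on the log2 scale, with limma's adjusted p over all 13905 genes. Among the 37 genes this was Pros1 alone, a share no larger than the 4.94% of all genes called lower. Pros1 differed by -1.02 (adjusted p = 0.00429). Its mean was 35.8 ± 2.07 scaled TPM in DDC and 42.6 ± 6.51 in untreated biliary cells, and 86.7 ± 5.63 in DDC and 50.6 ± 9.22 in untreated hepatocytes (SD, n = 3 each). Leaving out each of the 15 libraries in turn gave values between -1.14 and -0.88, of which 5 missed the size threshold of 1.

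Among 48 other genes of the cascades that were tested, 3 had a positive and 2 a negative called difference. These are 6.2% and 4.2% of the 48, near the 3.46% and 4.94% of all genes. Serpine2, the thrombin inhibitor protease nexin-1, differed most, at 6.13 (adjusted p = 2.98e-06): it was higher in DDC than in untreated biliary cells, with 43.5 ± 3.10 and 4.34 ± 1.38 scaled TPM, and lower in DDC than in untreated hepatocytes, with 0.747 ± 0.626 and 13.6 ± 5.64. Leaving out 1 library gave values between 5.90 and 6.49. The DDC hepatocyte mean of Serpine2 lies below the pseudocount of 1, so the size of its difference depends on the pseudocount. F2rl1, the receptor PAR2, differed by -1.84 (adjusted p = 0.00238), with 43.3 ± 10.5 in DDC and 32.6 ± 6.94 in untreated biliary cells and 3.93 ± 1.37 in DDC and 0.0214 ± 0.0185 in untreated hepatocytes. Its untreated hepatocyte mean lies below the pseudocount of 1, so the size of this difference depends on the pseudocount. The call of its hepatocyte response was lost with a pseudocount of 5. Procr, the endothelial receptor of protein C, differed by 1.27 (adjusted p = 0.0223). It was listed at 0 in the 3 untreated hepatocyte libraries, so the size of its difference depends on the pseudocount too. Cd55, a complement regulator of the cell surface, differed by 1.04 (adjusted p = 0.0188). Habp2, a plasma protease that can activate factor VII, differed by -1.06 (adjusted p = 0.0462), and 13 of the 15 fits with 1 library left out did not call it. Procr was lost in 3 of these fits and Cd55 in 4, and both were lost with quantile normalization, at 0.68 and 0.79.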

How the results depend on the processing

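The counts of the 37 genes that were lower in biliary cells than in hepatocytes, or lower in DDC than in untreated biliary cells, stayed within 1.5 times of their value under every alternative run on the first scale. Counts over all genes moved too. Without scale factors, 0 genes, against 31, were lower in reprogrammed cells than in hepatocytes under DDC (9 of all 13905, against 802), and 10 (against 28) higher in reprogrammed than in DDC biliary cells (120 of all, against 386). Pros1 alone was then higher in untreated biliary cells than in untreated hepatocytes (7350 of all) and in DDC than in untreated hepatocytes (1036 of all). With quantile normalization these first counts were 4 and 17 (693 and 381 of all). Then 5 (against 8) were lower and 1, C3, higher in DDC than in untreated hepatocytes (459 and 780 of all). C3 alone was also higher in DDC than in untreated biliary cells (830 of all). For reprogrammed against DDC biliary cells, 17 were higher with no filter (232 of all 24493) and 0 in a fit of only these groups (1 of all 13905). With the adjusted p alone as the rule, 1 gene was higher in each DDC response (2042 of all in hepatocytes and 1869 in biliary cells). With a pseudocount of 5, 0 of the 37 genes differed between the DDC responses (260 of all higher, 322 lower). With quantile normalization it was Proc in place of Pros1 (438 of all higher, 596 lower). Scaled to a hepatocyte list without Alb and the apolipoproteins, 8 genes (against 4) were higher in DDC than in untreated biliary cells. On the scale of the full list, 42.9% of all genes were. The cause was not tested.

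Leaving out each library in turn gave 23 to 31 genes lower in reprogrammed cells than in DDC hepatocytes, 3 to 30 higher than in DDC biliary cells, 36 to 37 lower in DDC and 35 to 35 lower in untreated biliary cells than in hepatocytes, 8 to 9 lower in DDC than in untreated hepatocytes with 0 to 0 higher, 8 to 14 lower in DDC than in untreated biliary cells with 0 to 1 higher, and 0 to 1 for the difference of responses. On the scale of the hepatocyte list the ranges were 0 to 2 higher for reprogrammed cells against DDC hepatocytes (2 without DDC hepatocyte library 1 or reprogrammed library 2), 0 to 1 lower against DDC biliary cells (1 without DDC biliary library 2 or reprogrammed library 1), 2 to 4 and 2 to 2 higher for DDC and untreated biliary cells against hepatocytes, and 3 to 6 higher and 2 to 3 lower in hepatocytes and 4 to 6 higher and 2 to 3 lower in biliary cells under DDC.

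Signs turned for single genes. Without scale factors C2 was 0.40, 0.21 and 0.39 for reprogrammed cells against DDC hepatocytes, DDC biliary cells against DDC hepatocytes and untreated biliary cells against untreated hepatocytes, Pros1 was 0.064 in the first and 1.01 in the last of these, and Serping1 was 0.050 in the first. With quantile normalization C3 was 0.016, 0.45 and, for reprogrammed against DDC biliary cells, -0.44, and Pros1 was 0.089 for untreated biliary cells against hepatocytes. Leaving out 1 library turned Kng1 in the biliary DDC response (-0.29 to 0.47, below 0 without DDC biliary library 2) and Fgb, which was near 0, in that of hepatocytes (-0.10 to 0.31, below 0 without DDC hepatocyte library 2 or 3) and of biliary cells (-0.55 to 0.073, above 0 without DDC biliary library 3). Of the other values of single genes under the alternatives, 6648 kept direction and call, 468 lost the call and 37 gained it.

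With the library number as a block within treatment, the counts were 31 lower in reprogrammed cells than in DDC hepatocytes, 31 higher than in DDC biliary cells, and 36 and 35 lower in DDC and untreated biliary cells than in hepatocytes, and no call changed but those of C8a, F5 and Kng1 given above. With 1 block over all libraries, which assumes that numbers are shared across treatments, they were 31, 30, 36 and 35, with 9 and 12 lower in DDC hepatocytes and biliary cells and 1 for the difference of responses.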

Other observations

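A few other genes of the cascades were called in DDC against untreated cells. In hepatocytes, F3, which encodes tissue factor, was higher under DDC with 5.74 ± 3.79 scaled TPM in DDC and 1.42 ± 0.569 in untreated libraries (SD, n = 3 each; log2 difference 1.34, limma adjusted p = 0.0143), a call that was lost without DDC hepatocyte library 2 or untreated hepatocyte library 2, with quantile normalization, with a pseudocount of 5, and in a fit of only these 2 groups. F2rl1 was higher by 2.23 (adjusted p = 2.04e-05), a call that was lost with a pseudocount of 5. Tfpi2, an inhibitor of plasmin and of tissue factor with factor VIIa, was lower in DDC than in untreated hepatocytes, with 46.8 ± 12.3 and 162 ± 14.1 (-1.80, adjusted p = 0.00125), and in DDC than in untreated biliary cells, with 8.15 ± 5.20 and 28.3 ± 2.63 (-1.84, adjusted p = 0.00115). C4a, the paralog of C4b, had 4.13 ± 0.849 in DDC and 20.5 ± 10.9 in untreated hepatocytes (-1.91, adjusted p = 0.00297), a call that was lost in a fit of only these 2 groups. Vkorc1, the reductase that recycles the vitamin K on which factors such as F2 and F7 rely, had 77.0 ± 21.6 in DDC biliary cells and 347 ± 84.4 in DDC hepatocytes (-2.17, adjusted p = 1.57e-05).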
